A study of Arabidopsis thaliana with 8 samples.

Results

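The comparison described here sets all 4 endosperm libraries whose mother was the ethylene-insensitive mutant ein2-5 against all 4 whose mother was wild-type Col-0, and asks which transcripts separate the sides completely. Its members were chosen by the first-named parent of each cross, and they take in 8 of the 8 libraries of the series. The mutant-mother side holds ein2-5 x ein2-5 and ein2-5 x Col-0, the wild-type-mother side holds Col-0 x Col-0 and Col-0 x ein2-5, and each cross has 2 libraries. A mutant father is thus present in 2 libraries of either side, so that the father's genotype is balanced. The labels state that flowers of the maternal parent were emasculated and then pollinated with another genotype, without telling the mother from the father in the name of a cross. Here the first name was read as the mother. Endosperm of Arabidopsis thaliana was cut out of seeds by laser capture microdissection (LCM) at 6 days after pollination (DAP), with no agent applied. No source says how many plants or seeds went into a library, so the spread between replicates may be technical.

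Ethylene is a gaseous hormone, and EIN2 is the membrane protein that carries its signal from the receptors at the endoplasmic reticulum to the nucleus. With no ethylene, the receptors keep the kinase CTR1 active, and CTR1 holds EIN2 off. Once ethylene binds, a cleaved part of EIN2 lets the transcription factors EIN3 and EIL1 accumulate, and plants that lack EIN2 function do not respond to the hormone. Endosperm is the tissue that nourishes the embryo, and it begins as a syncytium that later forms cell walls. It is the product of fertilisation and carries more genome copies from the mother than from the father, while the seed coat around it is purely maternal tissue.

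Values are FPKM, fragments scaled to transcript length and to library size, as the authors deposited them. A gene is described as separated, or without overlap, where the lowest of its 4 values on one side lies above the highest of its 4 values on the other. Estimated depth ran from about 677000 fragments in Col-0 x Col-0 replicate 1 to about 2010000 in ein2-5 x ein2-5 replicate 2, a 2.97-fold range. Libraries of different mothers correlated across genes at a median Pearson r of 0.948 on the log2 scale, against 0.946 for replicates of a cross. Between 18170 and 20951 genes were above 0 per library, and the fewest were in Col-0 x Col-0 replicate 1.

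EIN2 (AT5G03280) itself was lower in every mutant-mother library. With a wild-type mother it measured 35.7 and 54.8 FPKM for Col-0 x Col-0 and 31.4 and 50.03 FPKM for Col-0 x ein2-5. With a mutant mother it measured 26.2 and 22.2 FPKM for ein2-5 x Col-0 and 19.7 and 23.7 FPKM for ein2-5 x ein2-5. The sides did not overlap, the wild-type-mother libraries varied more among themselves, and the transcript remained well detected where both parents were mutant. Side means were 43.0 ± 11.2 and 22.9 ± 2.72 FPKM (SD, n = 4 each), and at least 109 estimated fragments stood behind each value. The log2 difference was the same with either father, -0.85 with a wild-type one and -0.85 with a mutant one, and its average carried a standard error (SE) of 0.20. EIN2 is the example the rule of this comparison gives, so its levels are a description, and in the limma fit over all genes its adjusted p was 0.69. FPKM over a whole gene does not read the allele, so EIN2 is no check of the labels.

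Of 19719 genes tested, 680 were separated between mothers, which is 3.45%. In 446 genes (2.26%) all mutant-mother libraries were higher, and in 234 (1.19%) all were lower. The same count over the fathers, which uses the same 8 libraries, gave 667 genes (3.38%), 525 higher (2.66%) and 142 lower (0.72%) with a mutant father, so about as many genes separated by father as by mother. Another 25 genes were separated but did not pass the filter on low values, out of 34133 listed. Limma with Benjamini-Hochberg adjustment called 0 genes (0%) for the mother, with a smallest adjusted p of 0.22 on the log2(FPKM + 1) scale, which understates differences of low genes, and 1397 genes (7.08%) had an unadjusted p under 0.05, 987 (5.01%) with a higher and 410 (2.08%) with a lower mean. It called 0 genes (0%) for the difference of the maternal change between fathers, with 662 (3.36%) at an unadjusted p under 0.05, and 0 (0%) for the father, with 1199 (6.08%). Leaving out Col-0 x Col-0 replicate 2 gave 12 calls for the mother, ein2-5 x Col-0 replicate 2 gave 6, Col-0 x Col-0 replicate 1 gave 2, and Col-0 x ein2-5 replicate 1 and ein2-5 x Col-0 replicate 1 gave 1 each. Each of these fits leaves a cross with 1 library, and most of the genes so called were listed at 0 in at least 1 library. Those called without ein2-5 x Col-0 replicate 2 had transcripts of at most 373 nt. All genes described below are separated or not separated in these libraries, without having passed the test over all genes.

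**Figure D1:**
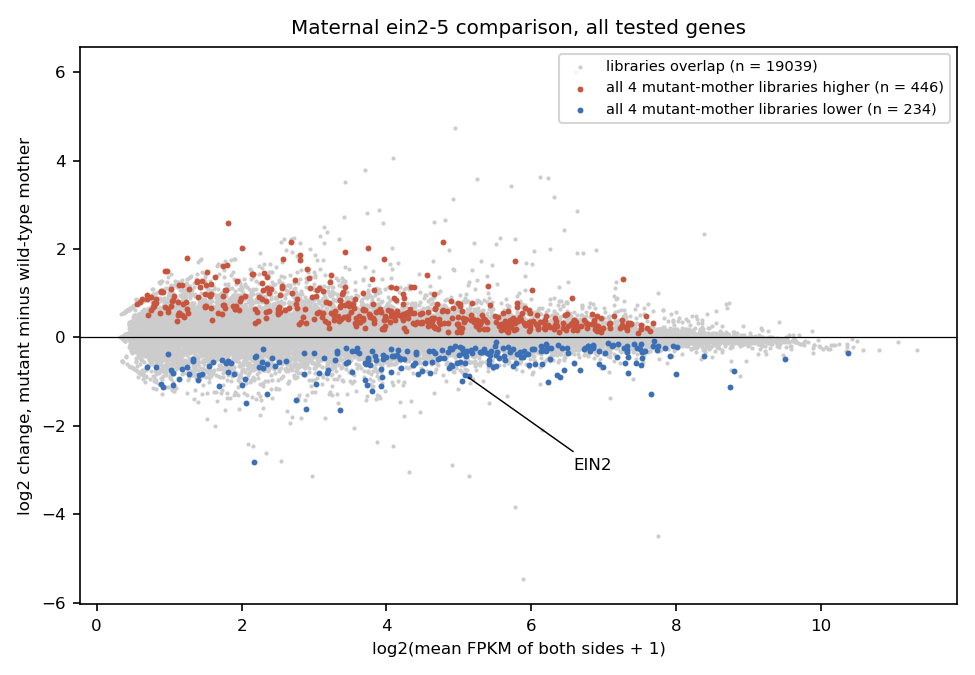
The log2 difference between mothers (y axis, mutant minus wild-type mother) is plotted for each tested gene against the log2 of its mean FPKM plus 1 (x axis). The 446 genes higher and the 234 lower in all 4 mutant-mother libraries lie within the cloud of genes whose libraries overlap, and EIN2 stands at -0.85.

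Which side had more separated genes depended on how libraries were scaled. As deposited, 65.6% of separated genes were higher with a mutant mother. After median-ratio scaling, 373 were higher and 412 lower (47.5% higher), and under quantile normalization 389 were higher and 570 lower (40.6% higher). Without the library of least depth, Col-0 x Col-0 replicate 1, the counts were 603 higher and 692 lower, and without ein2-5 x ein2-5 replicate 2, the deepest, 654 and 640. Dropping any library leaves fewer values to separate, and the total then ran from 1016 genes without Col-0 x ein2-5 replicate 2 to 2024 without ein2-5 x Col-0 replicate 2. No direction is therefore given for the genes as a whole. Separated in the same direction under all 3 scalings were 240 of the 446 higher genes (53.8%) and 181 of the 234 lower genes (77.4%).

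**Figure D2:**
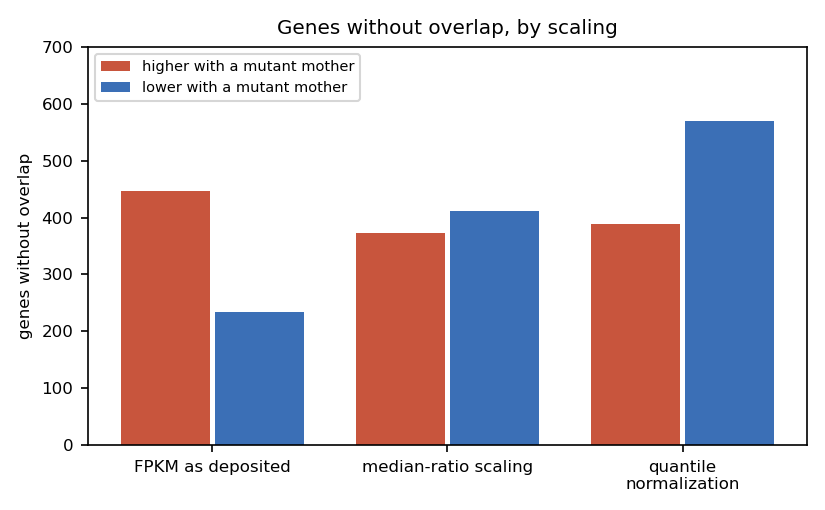
Bars give the number of genes separated between the 4 mutant-mother and 4 wild-type-mother libraries, higher or lower with a mutant mother, under 3 scalings (x axis). The higher genes outnumber the lower ones, 446 to 234, in the deposited values alone.

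Typical differences were small. The median log2 difference was 0.50 among the higher genes and -0.46 among the lower ones, against 0.04 over all genes tested. It exceeded 1 in size in 68 higher and 17 lower genes. Because a gene enters by separation alone, these sizes follow from the choice and are given as a description. The clear space between the sides was narrow, with a median gap of 0.083 (log2) for higher and 0.064 for lower genes, and it passed 0.5 in 12 and 3 genes. At the edge of the rule stood AT2G40360, a WD40-repeat protein gene, where the highest wild-type-mother value was 61.49 FPKM and the lowest mutant-mother value 61.51 FPKM. IDL4, a gene for a peptide related to the abscission signal IDA, stood just outside, listed at 0 in 6 libraries and at 13.7 and 8.32 FPKM for ein2-5 x Col-0 replicate 1 and ein2-5 x ein2-5 replicate 2.

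The median transcript was shorter in the higher and longer in the lower genes than over all tested, a difference that was not tested. Base composition was close to that of all tested genes. Median transcript length was 1592 nt in the higher and 1793.5 nt in the lower genes, against 1661 nt over all tested, and median GC content was 41.49%, 41.29% and 41.36%. Higher genes had a median mean level of 17.59 FPKM and lower genes 31.2 FPKM, with 17.1 FPKM over all tested. Of the higher genes, 55 (12.3%) were listed at 0 in Col-0 x Col-0 replicate 1, against 9.76% of all tested genes, and the part of that library's depth in these was not tested. A lower gene cannot be at 0 there by the rule. Separated genes lay on every nuclear chromosome, from 3.08% of tested genes on chromosome 5, which carries EIN2, to 4.17% on chromosome 2. Among the 149 tested genes within 100 places of EIN2 in gene order, 6 were higher and 1 was lower, beside 2.26% and 1.19% of all genes tested. Whether this neighbourhood differs from all genes was not tested.

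Among the named genes lower with a mutant mother, LRB3 and TPS4 had the most fragments after EIN2. LRB3, which encodes a BTB/POZ protein, measured 104 and 99.1 FPKM for Col-0 x Col-0, 106 and 149 FPKM for Col-0 x ein2-5, 80.9 and 72.2 FPKM for ein2-5 x Col-0, and 72.9 and 75.6 FPKM for ein2-5 x ein2-5. The mutant-mother libraries lay close together, and Col-0 x ein2-5 replicate 2 stood above the rest. Means were 115 ± 23.3 and 75.4 ± 3.96 FPKM (SD, n = 4 each), a log2 difference of -0.58 ± 0.12 (SE, limma adjusted p = 0.69). TPS4, of the trehalose-6-phosphate synthase family, whose product is a sugar signal in plants, measured 56.1 and 63.0 FPKM for Col-0 x Col-0 and 56.3 and 83.2 FPKM for Col-0 x ein2-5. It was at 39.0 and 45.3 FPKM for ein2-5 x Col-0 and at 33.8 and 45.3 FPKM for ein2-5 x ein2-5, so that each mutant-mother library lay below each wild-type-mother one whichever the father (-0.64 ± 0.16, SE).

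ABA4, which acts in the synthesis of neoxanthin, a precursor of the hormone abscisic acid, was even on the wild-type-mother side. It measured 21.4, 20.9, 21.8 and 22.0 FPKM there, 10.7 and 9.38 FPKM for ein2-5 x Col-0, and 16.5 and 16.7 FPKM for ein2-5 x ein2-5. Its log2 difference was thus -1.01 with a wild-type father and -0.38 with a mutant one, and the difference between fathers did not pass the test (limma adjusted p = 1.00). AT3G46890, annotated as a maternal effect embryo arrest protein, measured 90.9 and 173 FPKM for Col-0 x Col-0, 75.1 and 101 FPKM for Col-0 x ein2-5, 62.1 and 59.9 FPKM for ein2-5 x Col-0, and 43.8 and 58.4 FPKM for ein2-5 x ein2-5. Here the wild-type-mother side was the more variable, with means of 110.2 ± 43.5 and 56.0 ± 8.31 FPKM (SD, n = 4 each).

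**Figure D3:**
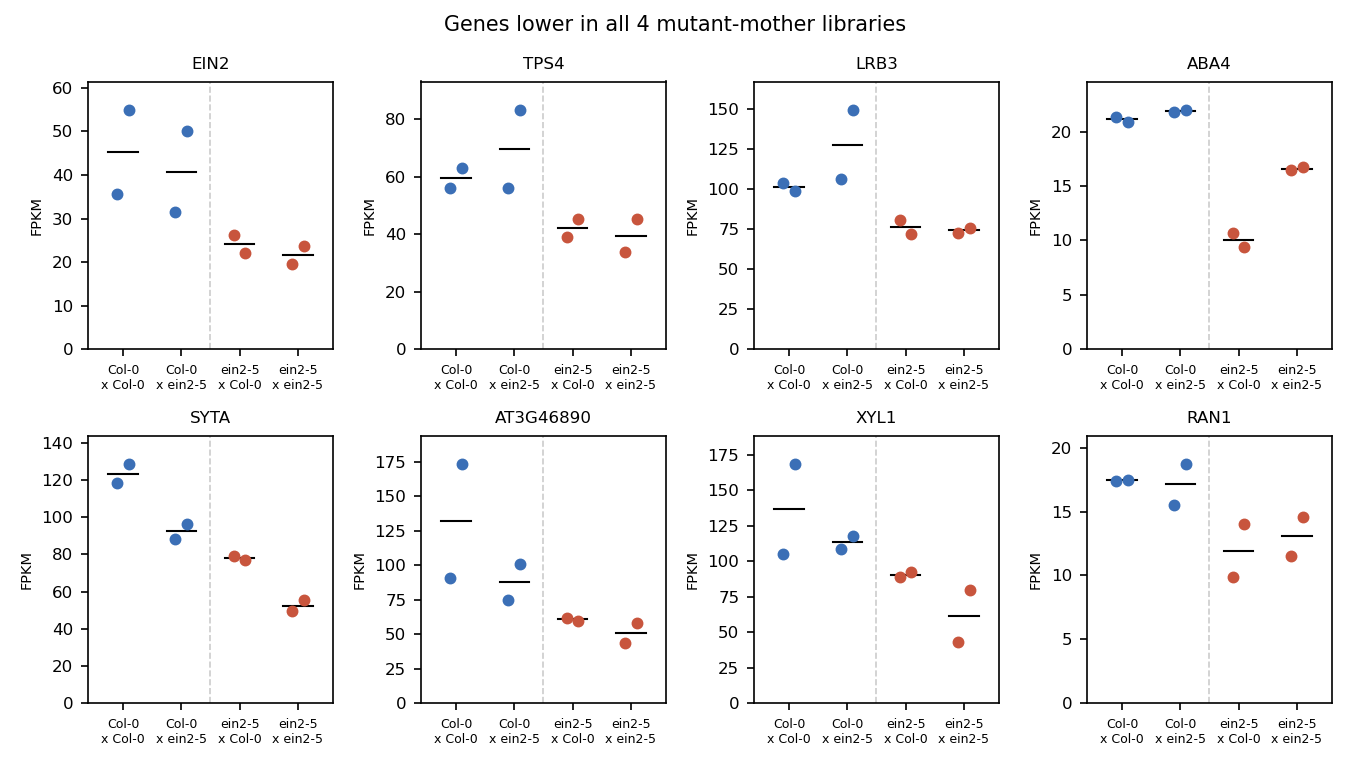
FPKM (y axis, linear from 0) of 8 genes lower in every mutant-mother library, by cross (x axis), with a point per library (blue, Col-0 mother, red, ein2-5 mother) and a line at the mean of 2. Each red point lies below each blue point of its panel, as in EIN2 with 19.7 to 26.2 against 31.4 to 54.8 FPKM.

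The remaining lower genes named by gap were mostly scarce transcripts. AT3G07215, a non-coding RNA gene, was at 13.5 to 18.4 FPKM with a wild-type mother and 5.66 to 10.2 FPKM with a mutant one. AT2G19850, annotated as a transcription repressor, was at 4.42 to 8.26 FPKM against 1.14 to 3.42 FPKM, and AT1G07300, a josephin-like protein gene, at 11.4 to 12.8 FPKM against 6.69 to 9.07 FPKM. AT5G52272, a transcribed pseudogene with the widest gap among lower genes of at least 500 nt that averaged at least 5 FPKM on the higher side, was at 7.14 to 15.2 FPKM against 1.68 to 3.05 FPKM, which comes to no more than 2.6 estimated fragments in any library. AT5G28442, AT1G19397, the protein kinase gene AT2G40560 and AT1G61160, annotated as a retrotransposon gag gene, had up to 7.85, 13.6, 5.16 and 4.46 estimated fragments. At such counts a difference of a few fragments sets the gap.

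Restricting the view to genes with a mean of at least 100 estimated fragments gave 3961 tested genes, of which 64 were separated as higher (1.62%) and 77 as lower (1.94%). This restriction was chosen after values were seen. Under all 3 scalings, 20 higher and 55 lower genes remained. Among these, SYTA, a synaptotagmin of plasma membrane trafficking, had the smallest p-value of the well-measured genes (log2 difference -0.73 ± 0.09 SE, limma adjusted p = 0.22). It measured 118 and 128 FPKM for Col-0 x Col-0, 88.4 and 96.3 FPKM for Col-0 x ein2-5, 79.1 and 77.2 FPKM for ein2-5 x Col-0, and 49.5 and 55.5 FPKM for ein2-5 x ein2-5. SYTA was thus also lower with a mutant father for either mother, a paternal difference of -0.49 (limma adjusted p = 0.79).

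The following lower genes encode enzymes and were likewise picked by the width of their gap among genes with that many fragments. XYL1, an alpha-xylosidase that trims xyloglucan of the cell wall, measured 105 to 168 FPKM with a wild-type mother and 43.5 to 92.2 FPKM with a mutant one. AXS1, which makes UDP-apiose and UDP-xylose for wall polymers, measured 129 to 148 FPKM against 104 to 114 FPKM, and the phosphoglucomutase PGM3 120 to 135 FPKM against 102 to 108 FPKM. CSY1, a citrate synthase, measured 131 to 168 FPKM against 55.6 to 117 FPKM. In XYL1 and CSY1 the lowest value belonged to ein2-5 x ein2-5 replicate 1, while AXS1 and PGM3 were even on the mutant side. No list of such enzymes was tested, so these stand as single genes.

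Other well-measured lower genes were AT1G27040, a major facilitator superfamily transporter gene, at 78.5 to 118 FPKM against 24.9 to 66.0 FPKM, and CHR38, a chromatin remodeller, at 33.7 to 42.6 FPKM against 20.6 to 29.4 FPKM. SDF2, a protein of the endoplasmic reticulum, was at 198 to 218 FPKM against 152 to 179 FPKM, and AT5G06330, an LEA hydroxyproline-rich glycoprotein gene, at 56.9 to 109 FPKM against 43.4 to 51.2 FPKM. Their log2 differences ran from -0.30 for SDF2 to -0.999 for AT1G27040.

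Genes higher with a mutant mother included several transcription factors at low levels. These were named by gap, and the share of transcription factors among separated or all genes was not counted, so they stand as single genes. MYBL2, a MYB-related repressor of flavonoid synthesis, measured 0 and 2.34 FPKM for Col-0 x Col-0, 3.27 and 1.92 FPKM for Col-0 x ein2-5, 7.83 and 4.91 FPKM for ein2-5 x Col-0, and 9.70 and 9.43 FPKM for ein2-5 x ein2-5. OBP1, a DOF-type factor linked to the cell cycle, measured 0 and 2.26 FPKM for Col-0 x Col-0, 4.20 and 3.70 FPKM for Col-0 x ein2-5, 6.48 and 7.12 FPKM for ein2-5 x Col-0, and 14.6 and 9.76 FPKM for ein2-5 x ein2-5. Both were listed at 0 in the shallowest library and were highest where both parents were mutant. Log2 differences were 1.78 ± 0.42 for MYBL2 and 1.75 ± 0.39 for OBP1 (SE), with at most 18.7 and 17.3 estimated fragments in a library (limma adjusted p = 0.69 for either).

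The MADS-box gene SEPALLATA2 (AT3G02310), a floral organ identity factor, measured 3.90 and 3.99 FPKM for Col-0 x Col-0, 4.87 and 2.45 FPKM for Col-0 x ein2-5, 7.86 and 7.85 FPKM for ein2-5 x Col-0, and 15.1 and 7.74 FPKM for ein2-5 x ein2-5. It was close to even in 3 mutant-mother libraries and higher in ein2-5 x ein2-5 replicate 1. MYB94, an activator of cuticular wax synthesis, was at 0 to 3.28 FPKM with a wild-type mother and 4.72 to 8.12 FPKM with a mutant one. ADAP, an AP2-domain factor tied to abscisic acid response, was at 4.66 to 9.15 FPKM against 12.2 to 14.01 FPKM. In each of these factors both fathers gave a difference of the same sign, as separation requires. SEPALLATA2, MYB94 and ADAP had at most 21.7, 24.1 and 32.2 estimated fragments in a library.

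**Figure D4:**
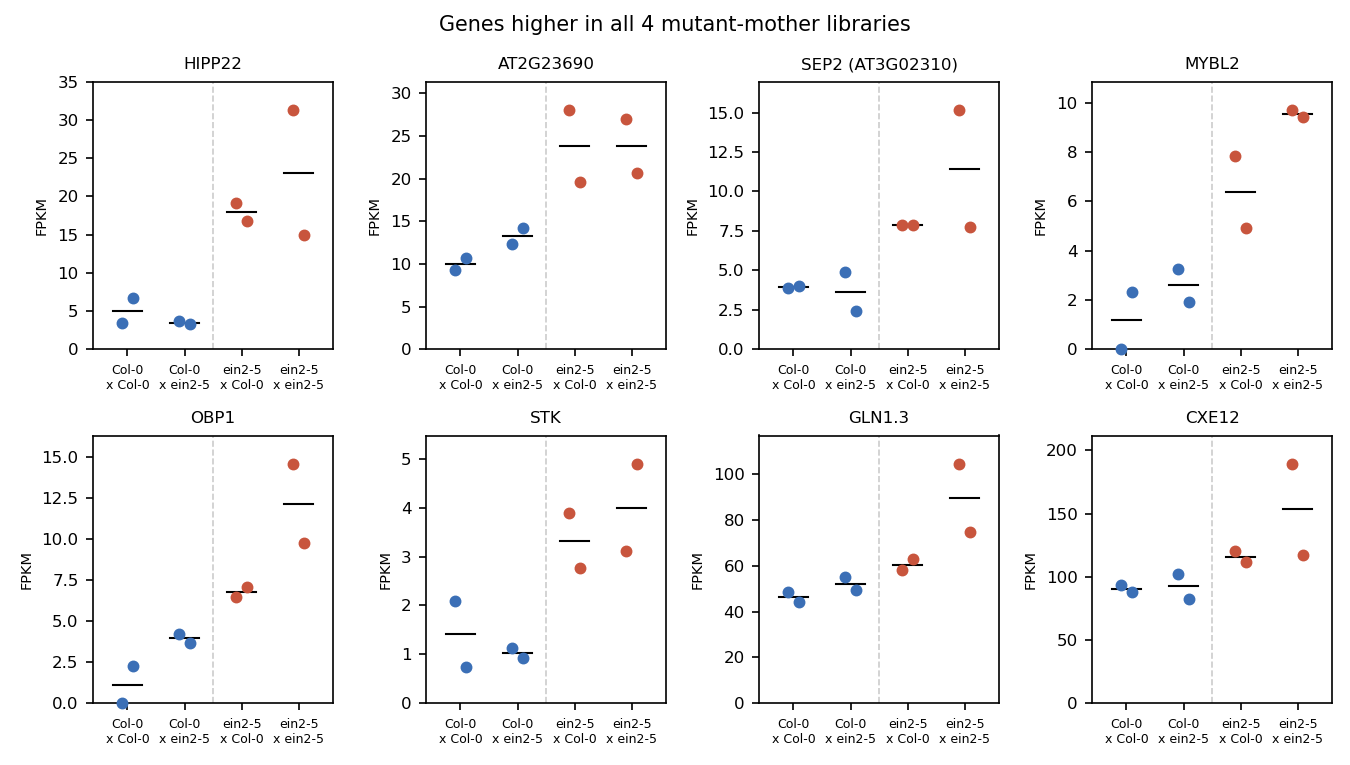
FPKM (y axis, linear from 0) of 8 genes higher in every mutant-mother library, by cross (x axis), with a point per library (blue, Col-0 mother, red, ein2-5 mother) and a line at the mean of 2. Each red point lies above each blue point of its panel, as in HIPP22 with 14.96 to 31.3 against 3.27 to 6.67 FPKM.

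HIPP22 and AT2G23690 also had wide gaps. HIPP22, which encodes a protein with a heavy metal-associated domain, measured 3.47 and 6.67 FPKM for Col-0 x Col-0, 3.72 and 3.27 FPKM for Col-0 x ein2-5, 19.1 and 16.8 FPKM for ein2-5 x Col-0, and 31.3 and 14.96 FPKM for ein2-5 x ein2-5. Its mean was 4.79-fold higher with a mutant mother, a log2 difference of 2.01 ± 0.29 (SE, limma adjusted p = 0.33), on 0.959 to 15.8 estimated fragments. AT2G23690, annotated as an HTH-type transcriptional regulator, measured 9.26 and 10.7 FPKM for Col-0 x Col-0, 12.4 and 14.2 FPKM for Col-0 x ein2-5, 28.0 and 19.6 FPKM for ein2-5 x Col-0, and 27.0 and 20.7 FPKM for ein2-5 x ein2-5. AT2G23690 rests on 4.58 to 30.3 estimated fragments in a library. As these genes were picked by gap, their mutant-mother libraries stand above the others with either father by the rule.

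AT1G11175, a non-coding RNA gene, was at 8.31 to 14.02 FPKM with a wild-type mother and 20.1 to 23.3 FPKM with a mutant one, and AT4G32480, a DUF506 gene, at 1.58 to 2.58 FPKM against 5.35 to 6.13 FPKM. AT3G52790, a LysM-domain gene, was at 2.28 to 6.34 FPKM against 9.43 to 16.3 FPKM, and AT5G19270, annotated as reverse transcriptase-like, at 0.680 to 1.90 FPKM against 2.93 to 10.3 FPKM. AT1G26795, of the self-incompatibility protein S1 family, had the widest gap among higher genes of at least 500 nt that averaged at least 5 FPKM on the higher side, 0 to 2.38 FPKM against 7.38 to 10.8 FPKM. It rests on at most 3.47 estimated fragments in a library.

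Among the 680 separated genes that passed the filter on low values, 5 were listed at 0 in a whole side. Of these, 4 were at 0 with a wild-type mother, namely AT1G24000, MAPKKK17, AT3G43200 and AT3G62040, and AT5G53815 was at 0 with a mutant one, all named after their values were seen. AT1G24000, a polyketide cyclase and lipid transport superfamily gene, had 4.68 and 5.14 FPKM for ein2-5 x Col-0 and 4.51 and 5.65 FPKM for ein2-5 x ein2-5, at most 2.47 estimated fragments. MAPKKK17, a kinase gene of abscisic acid signalling, had 0.952, 2.09, 1.83 and 2.87 FPKM in the mutant-mother libraries. An absence at this depth cannot be told apart from a low level.

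Higher genes with a mean of at least 100 fragments, picked by gap after values were seen, differed by less. GLN1.3, a cytosolic glutamine synthetase that assimilates ammonium, measured 48.5 and 44.1 FPKM for Col-0 x Col-0, 54.9 and 49.6 FPKM for Col-0 x ein2-5, 57.9 and 62.8 FPKM for ein2-5 x Col-0, and 104 and 74.8 FPKM for ein2-5 x ein2-5 (log2 difference 0.56 ± 0.13, SE). CXE12, a carboxylesterase, measured 82.5 to 102 FPKM with a wild-type mother and 112 to 189 FPKM with a mutant one. For both, ein2-5 x ein2-5 replicate 1 was the highest library. ASE1, the first committed enzyme of purine synthesis, measured 37.9 to 51.7 FPKM against 55.8 to 62.0 FPKM, and ARAC9, a ROP GTPase, 133 to 153 FPKM against 166 to 179 FPKM.

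The rest of that set included AT5G66860, a ribosomal protein L25 family gene, at 112 to 128 FPKM against 141 to 158 FPKM, and AT3G13580, of the ribosomal protein L30/L7 family, at 92.5 to 114 FPKM against 121 to 143 FPKM. AT2G47640, a small nuclear ribonucleoprotein gene, was at 101 to 147 FPKM against 162 to 194 FPKM, and AT3G14390, a pyridoxal-dependent decarboxylase gene, at 51.0 to 55.6 FPKM against 61.0 to 69.1 FPKM. CJD1, AT1G67700, AT3G24506 and AT4G34180 had log2 differences of 0.25, 0.26, 0.28 and 0.29. On the wild-type-mother side, Col-0 x Col-0 replicate 1 was the lowest library for AT2G47640 (101 FPKM, next 137 FPKM) and for CJD1 (69.6 FPKM, next 84.0 FPKM).

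In the ethylene pathway, 3 of 18 genes for perception and signalling were separated, EIN2 among them, beside 3.45% of all genes tested. EIN2 is the example the rule of this comparison gives, so the 3 cannot be read as an excess over that share. All 18 were tested, 0 passed the test, 2 were separated as lower and 1 as higher, and the median log2 difference was -0.11, against 0.04 over all genes. Without Col-0 x ein2-5 replicate 2 that median was -0.0251. RAN1, a copper transporter that loads the receptors with their cofactor, measured 17.43 and 17.47 FPKM for Col-0 x Col-0, 15.5 and 18.7 FPKM for Col-0 x ein2-5, 9.86 and 14.04 FPKM for ein2-5 x Col-0, and 11.6 and 14.6 FPKM for ein2-5 x ein2-5 (-0.45 ± 0.18, SE). EIL2, a member of the EIN3 family, was separated the other way, at 0 to 1.105 FPKM against 1.14 to 2.19 FPKM, a gap of 0.021 (log2) on at most 6.12 estimated fragments.

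The receptors did not separate. The values of these and of CTR1, EIN3 and EIL1 were seen before they were picked from the list. ETR1 was at 9.40 to 18.8 FPKM with a wild-type mother and 12.8 to 17.3 FPKM with a mutant one, ERS1 at 39.7 to 64.8 FPKM against 35.6 to 47.5 FPKM, ERS2 at 33.0 to 39.5 FPKM against 35.4 to 39.1 FPKM, and ETR2 at 15.5 to 19.3 FPKM against 7.98 to 16.9 FPKM. CTR1, the kinase below them, was at 27.7 to 34.3 FPKM against 28.8 to 33.9 FPKM. The transcription factor genes at the end of the pathway had lower means with a mutant mother but overlapped. EIN3 was at 19.8 to 32.2 FPKM against 16.5 to 24.8 FPKM (-0.39 ± 0.20, SE), and EIL1 at 2.27 to 4.05 FPKM against 0.914 to 2.51 FPKM (-0.80 ± 0.32, SE). Neither passed over all genes (limma adjusted p = 0.69 for EIL1 and 0.74 for EIN3).

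Genes that make ethylene or respond to it were not separated in any tested member. Of 17 biosynthesis genes, 12 were tested, with 8 higher and 4 lower means, a median of 0.09 and 0 passing the test (-0.00971 when Col-0 x ein2-5 replicate 1 and 0.239 when Col-0 x Col-0 replicate 2 was left out). EOL1, a regulator of ACC synthase turnover and the most abundant of them, was at 17.9 to 29.3 FPKM against 19.4 to 23.3 FPKM. Of 18 ethylene-responsive genes, 13 were tested, with 9 higher and 4 lower means, a median of 0.25 and 0 passing. ERF1, ORA59 and PDF1.2 were listed at 0 in every library. RAP2.3, an ERF-family factor and the most abundant member, was at 317 to 410 FPKM against 250 to 354 FPKM, with a mean of 360 ± 38.2 against 303 ± 48.7 FPKM (SD, n = 4 each). The median of that list moved to -0.01 when replicate 2 of ein2-5 x ein2-5 was omitted and to 0.4 when replicate 1 was.

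The seed coat list, 21 genes mostly of the flavonoid and tannin pathway, had higher means in most members. All 21 were tested, 19 had a higher mean with a mutant mother, and 0 passed the test. How many of all tested genes had a higher mean was not counted. In this list 1 gene was separated, beside 3.45% of all genes tested. The median log2 difference was 0.47, against 0.04 over all genes tested. Their summed level was 757 to 1000 FPKM with a wild-type mother and 655 to 1805 FPKM with a mutant one, so the sums overlapped. Both the highest and the lowest sum belonged to the mutant-mother side, in ein2-5 x ein2-5 replicate 1 and ein2-5 x Col-0 replicate 2, and no marker was at 0 throughout. The median was 0.17 with a wild-type father and 0.73 with a mutant one, and 0.3 when ein2-5 x Col-0 replicate 1 was left out. The separated member was STK, a MADS-box factor of ovule and seed coat identity, at 2.101 and 0.751 FPKM for Col-0 x Col-0, 1.124 and 0.922 FPKM for Col-0 x ein2-5, 3.89 and 2.77 FPKM for ein2-5 x Col-0, and 3.11 and 4.89 FPKM for ein2-5 x ein2-5. STK rests on 1.72 to 13.0 estimated fragments in a library.

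The seed coat sums were thus uneven between libraries, and their part in the differences described here was not tested. In ein2-5 x Col-0 replicate 2, the library with the lowest seed coat sum, STK was the lowest of the mutant-mother libraries. That it lies above all wild-type-mother ones there follows from the rule by which it was named. The pathway enzymes overlapped between mothers, as in TT3, dihydroflavonol reductase, at 78.0 to 102 FPKM against 75.8 to 197 FPKM, and BAN, anthocyanidin reductase, at 115 to 134 FPKM against 85.1 to 249 FPKM, a pair picked with their values in view. In bulk tissue, fewer cells of a type and less RNA per cell cannot be told apart.

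Endosperm markers were detected on both sides, as were seed coat and embryo markers, so the purity of the tissue is not shown. In both ein2-5 x ein2-5 libraries the seed coat sum, 1805 and 1217 FPKM, was above the endosperm marker sum, 1428 and 1150 FPKM. In every other library the seed coat sum was the lower, narrowly so in ein2-5 x Col-0 replicate 1 (1179 against 1190 FPKM). The lists differ in length, 21 and 15 genes, and in the levels of their members. Their sums therefore do not compare amounts of tissue. Of 15 endosperm markers, 13 were tested, 9 had higher and 4 lower means, 0 were separated or passed the test, and the median was 0.20, with summed levels of 1007 to 1172 FPKM against 1100 to 1428 FPKM. Leaving out ein2-5 x ein2-5 replicate 1 gave a median of 0.07 and leaving out replicate 2 of that cross 0.36. IKU2 and MINI3 were below the filter. HDG3, a paternally expressed homeodomain gene and the most abundant marker, was at 206 to 317 FPKM against 230 to 357 FPKM. Of 13 embryo markers, 11 were tested, 5 higher and 6 lower, with 0 separated or past the test and a median of -0.0011. That median ran from -0.155 without ein2-5 x ein2-5 replicate 2 to 0.254 without ein2-5 x ein2-5 replicate 1 and changed sign in 7 of 19 alternatives. WUS, a stem cell regulator, was at 0 in every library. LEC1, a seed regulator, was at 393 to 453 FPKM against 330 to 450 FPKM, and embryo marker sums were 675 to 772 FPKM against 630 to 786 FPKM.

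Type I MADS-box genes, many of them active in syncytial endosperm, had the highest list median, 0.67. Of 19 genes, 17 were tested, 16 had a higher and 1 a lower mean with a mutant mother, and 0 passed the test. This split was not set against that of all tested genes. Among the tested members 1 gene was separated, beside 3.45% of all genes tested. That gene was AGL36, also in the list of maternally expressed imprinted genes, at 1.54 and 1.19 FPKM for Col-0 x Col-0, 1.65 and 0 FPKM for Col-0 x ein2-5, 2.55 and 1.86 FPKM for ein2-5 x Col-0, and 3.27 and 3.58 FPKM for ein2-5 x ein2-5. It rests on at most 6.37 estimated fragments and has close paralogs, so its reads may be shared with them. PHE1 and AGL62 were picked after their values were seen. PHE1, a paternally expressed gene of this family, missed separation narrowly, at 94.8 to 174 FPKM against 166 to 287 FPKM (0.64 ± 0.20, SE, limma adjusted p = 0.69).

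Within the MADS-box list the median log2 difference was 0.23 for a wild-type father and 0.88 for a mutant one, and this contrast was not tested for the list. ein2-5 x Col-0 replicate 2 scored -0.41 on it, inside the wild-type-mother range of -0.55 to 0.07, where a score is the mean log2 deviation of the members. The other mutant-mother libraries scored 0.14 to 1.21. AGL62, which holds back cell wall formation in the endosperm, was at 2.62 to 4.02 FPKM with a wild-type mother, and at 7.52, 1.03, 23.5 and 7.92 FPKM in the mutant-mother libraries. Seed coat markers moved in the same libraries, with scores of 0.82 in ein2-5 x ein2-5 replicate 1 and -0.43 in ein2-5 x Col-0 replicate 2, and their part in this was not tested.

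**Figure D5:**
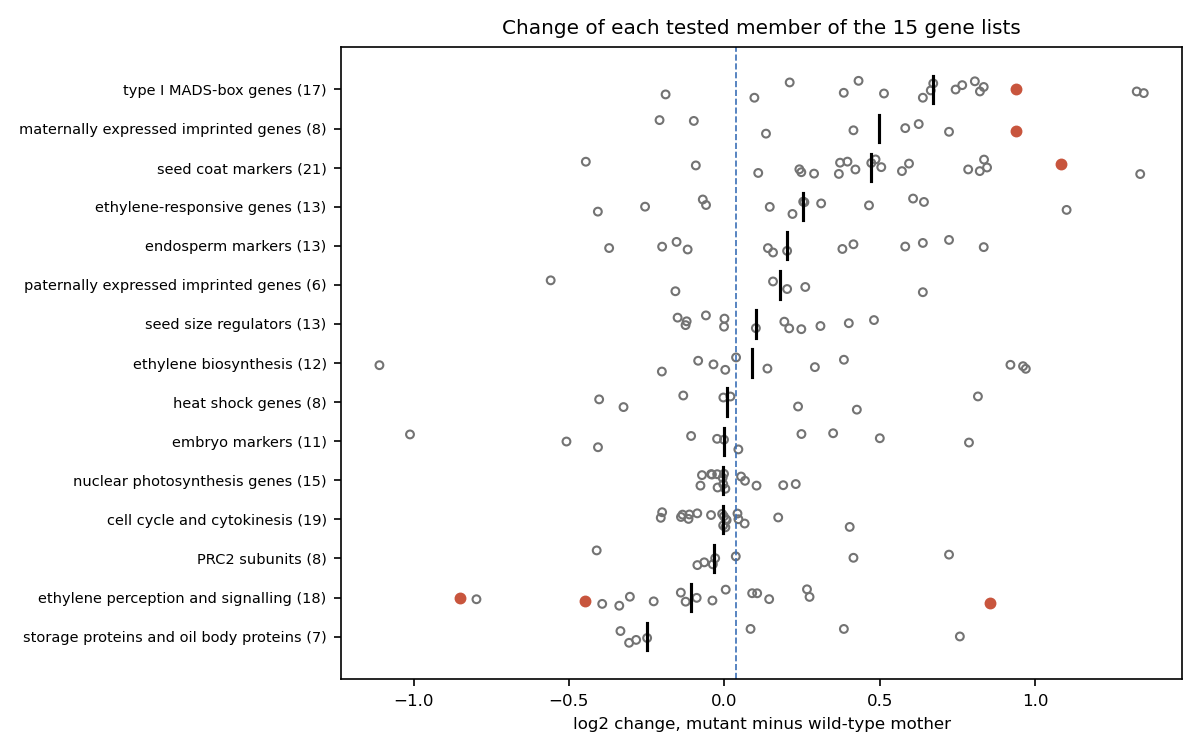
The log2 difference (x axis, mutant minus wild-type mother) of each tested member is shown for 15 lists (y axis, tested members in parentheses), with a black bar at the list median, a dashed line at the median of all genes (0.04) and filled red points for separated genes. Medians over all 8 libraries run from -0.25 for storage and oil body proteins (-0.0459 without Col-0 x ein2-5 replicate 2) to 0.67 for type I MADS-box genes, and 5 members are separated.

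Imprinted genes were mixed. Of 8 maternally expressed genes, all tested, 6 had higher and 2 lower means, with a median of 0.50. AGL36 alone was separated, beside 3.45% of all genes tested. The median was 0.331 without ein2-5 x Col-0 replicate 1, 0.313 with a wild-type father and 0.676 with a mutant one. On this list ein2-5 x Col-0 replicate 2 scored -0.461, below the wild-type-mother range of -0.4 to 0.0893. Both imprinted lists share members with other lists, as with FWA, MEA and FIS2, so list medians are not separate observations. Of 7 paternally expressed genes, 6 were tested, 4 higher and 2 lower, with a median of 0.18 and 0 separated, and omitting replicate 1 of ein2-5 x ein2-5 moved it to 0.0148 and omitting replicate 2 to 0.293. PRC2 subunits, the repressor complex that controls many imprinted genes, had a median of -0.03 over 8 genes with 0 separated, which moved to 0.0616 when replicate 2 of Col-0 x Col-0 was omitted. MSI1, the most abundant, was at 151 to 176 FPKM against 158 to 167 FPKM.

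Growth, storage and stress lists held 0 separated genes and 0 that passed the test. Cell cycle and cytokinesis genes had a median of -0.00374 over 19 genes, -0.0787 under quantile normalization, and KN, the syntaxin of the forming cell plate, was at 443 to 617 FPKM against 370 to 538 FPKM. Seed size regulators had a median of 0.10 over 13 tested genes, which became -0.00504 under quantile normalization and -0.0278 without ein2-5 x ein2-5 replicate 2, and BZR1, a brassinosteroid response factor, was at 219 to 258 FPKM against 203 to 265 FPKM. Storage and oil body proteins had a median of -0.25 over 7 tested genes, 0.52 with a wild-type father and -0.51 with a mutant one, and the oleosin OLEO3 was at 413 to 570 FPKM against 326 to 493 FPKM. The fathers thus gave medians of opposite sign for this list, which was not tested, and without Col-0 x ein2-5 replicate 2 the median was -0.0459.

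Photosynthesis genes had a median of -0.00346 over 15 genes, which ran from -0.156 with replicate 2 of Col-0 x Col-0 omitted to 0.167 with its replicate 1 omitted, and changed sign in 5 of 19 alternatives. CAB1, a chlorophyll-binding antenna protein, was at 672 to 1372 FPKM against 620 to 959 FPKM. Heat shock genes had a median of 0.00821 over 8 genes, which ran from -0.238 without ein2-5 x Col-0 replicate 1 to 0.33 without Col-0 x ein2-5 replicate 1 and changed sign in 6 of 19 alternatives. The chaperone HSP90.1 was at 43.3 to 64.3 FPKM against 43.5 to 68.9 FPKM. In all, 11 of 15 lists had no separated member. The other 4 held 5 different separated genes, EIN2, RAN1, EIL2, STK and AGL36, of 176 tested list genes, beside 3.45% of all genes tested. EIN2 is counted there although the rule of this comparison names it.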

How the data were processed

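RNA of laser-captured endosperm was sequenced in 8 libraries, 2 for each of 4 crosses. The authors deposited FPKM values, made with TopHat2 2.1.1, SAMtools 1.5 and Cufflinks 2.2.1 on TAIR10, per the submitters' processing notes, and options and strand use are not given in the sources used here. No fragment counts were used, and FPKM is already scaled per length and per library. Depth was estimated here from the smallest steps of FPKM over transcripts of at least 1500 nt that were above 0 in at most 3 libraries, with 340 nt taken off the length. A fragment on 1500 nt was then worth 0.43 to 1.27 FPKM.

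Genes with at least 1 FPKM in at least 2 libraries were fitted as log2(FPKM + 1) with limma 3.58.1 in R 4.3.3, with 4 cross means, a variance trend, two-sided tests and Benjamini-Hochberg adjustment at 0.05. The father and the difference between fathers came from the same fit, so that 3 comparisons were made. Separation was counted beside it. Names, lengths and gene order came from RefSeq TAIR10.1 by locus (31416 of 34133 IDs matched). The text names EIN2, the 12 genes per direction with the widest gap that averaged at least 5 FPKM on the higher side and had at least 500 nt, and, for each of 15 lists with 202 genes, up to 4 separated members or else the most abundant one. Members and lists were chosen with earlier results of these data known. The fit was tested on simulated data, and 19 alternatives were run. The labels do not say that replicates came from separate plants, so p-values measure only the spread between these libraries. Sequences are not shown.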

Additional observations from a re-analysis of the deposited data

Results flagged for a closer look

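In each named gene, the 4 libraries of each mother were checked for a value whose gap to the nearest other value was more than 0.829 of the range. Chance flags about 5% of such groups, and 6 of 78 were found. HIPP22 was at 6.668 FPKM in Col-0 x Col-0 replicate 2, while the other wild-type-mother libraries were at 3.272 to 3.716 FPKM. SEPALLATA2 (AT3G02310) was at 15.15 FPKM in ein2-5 x ein2-5 replicate 1, with the others of that side at 7.744 to 7.863 FPKM. In Col-0 x ein2-5 replicate 2, AT1G19397 was at 18.55 FPKM against 11.41 to 12.34 FPKM, and LRB3 at 149.2 FPKM against 99.11 to 106.2 FPKM. LEC1 was at 453.1 FPKM in Col-0 x Col-0 replicate 1 against 393.0 to 400.9 FPKM, and HSP90.1 at 64.28 FPKM in Col-0 x ein2-5 replicate 1 against 43.33 to 46.66 FPKM.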

How the results depend on the processing

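Over 39 named results and 19 alternatives, 727 of 741 values kept their direction and side of the threshold. EOL1 changed sign with a pseudocount of 5 (-0.0002941), with median-ratio scaling (-0.03802) and with quantile normalization (-0.05643), and ran from -0.1677 to 0.1737 without single libraries. LEC1 became 0.001702 and CAB1 0.02613 under quantile normalization. Without single libraries LEC1 ran from -0.09751 to 0.05082, CAB1 from -0.3342 to 0.1805 and MSI1 from -0.08641 to 0.01233. The count of lower separated genes became 412 with median-ratio scaling and 570 with quantile normalization. Without a variance trend, or with the mother alone in the fit, 1 gene was called (AT1G24000, adjusted p 0.0127 and 0.0399), and the cause was not tested. Leaving out a library gave 0 to 12 calls for the mother, 0 to 3 for the difference between fathers and 0 to 10 for the father. It gave 1016 to 2024 separated genes, 603 to 1549 higher and 317 to 692 lower, since fewer values have to separate. EIN2 ran from -1.01 to -0.69, with adjusted p from 0.30 to 1.00. A cross left with 1 library was assumed to vary like the others. Replicate numbers were shared without a stated pairing, and the replicate differences of the crosses correlated at 0.00866 to 0.136 across genes. With a replicate block, 0 genes were called, 1766 had an unadjusted p under 0.05 and the smallest adjusted p was 0.277. Depth limits genes of a few fragments: 1 fragment more or less moves their gap.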
